A study of Mus musculus with 5 samples.

Results

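The S100 genes followed here encode small calcium-binding proteins, and their transcripts were measured in colon tumors of 5 mice. The 10 members were taken by symbol from the deposited expression table: S100a3, S100a4, S100a6, S100a8, S100a9, S100a10, S100a11, S100a13, S100a14 and S100a16. They are 10 of 52143 genes in that table. All 10 were among the 10338 genes that reached a TPM of at least 1 in at least 2 samples and were tested, and 8 of them were among the 3476 genes that reached a TPM of at least 5 in at least 2 samples. TPM gives the abundance of a transcript per unit of length relative to all RNA of its sample.

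An S100 protein carries a pair of EF-hand motifs that bind calcium, usually works as a dimer, and changes shape on binding so that a target protein can dock. Inside cells the family acts on annexins, myosin and other cytoskeletal proteins, and several members leave the cell and signal through receptors such as RAGE and TLR4. In the colon, S100a8 and S100a9 are known as the subunits of calprotectin, an abundant protein of neutrophils. It is measured in stool as a sign of gut inflammation. Epithelial cells can make S100a6, S100a10, S100a11, S100a14 and S100a16. Which cells made any member here was not tested.

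The study asked how human SIGLEC12, which encodes the lectin Siglec-XII, affects colon tumors in mice. All animals were female, carried Villin1-Cre-ERT, a Cre recombinase that tamoxifen activates and that the villin promoter limits to intestinal epithelium, and were 8 weeks old when they began 5 days of tamoxifen (10 mg/ml). The 2 Control mice (replicates 1 and 4) carried only that allele, and the 3 SIGLEC12 mice (replicates 2, 3 and 4) had in addition 1 floxed copy of human SIGLEC12 at ROSA26, driven by the CAG promoter once Cre had removed a stop cassette. Both groups received the carcinogen azoxymethane (AOM, 10 mg/kg), then repeated rounds of 2.0% dextran sodium sulfate (DSS) for 5 days, each with 14 days of recovery, and tumors were taken on day 87. Although 3 mice per group are described for the series, sample labels and values were available here for only 2 Control mice. Expression of the transgene was not analysed here and so did not check the labels. In whole tumors, fewer cells of a type and less RNA per cell cannot be told apart.

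The libraries differed in ways that touched every S100 value. Protein-coding genes held 5.70% and 6.74% of all TPM in the Control mice and 8.75% to 9.72% in the SIGLEC12 mice, so that the median log2 difference (SIGLEC12 minus Control) over all tested genes was 0.38 and became 0.01 once every sample was brought to 1 protein-coding total. Differences between groups are therefore given both as deposited and on that rescaled scale. Control replicate 1 stood apart: 7947 genes had a TPM of at least 1 in it against 9532 to 10090 in the others, 12 markers of columnar epithelium, the lining of the colon, summed to a TPM of 463 against 1336 to 2105, and 12 markers of squamous epithelium, the lining of skin and anus, summed to 3027 against 429 to 1148. Member and ratio differences that this library moved are also given without it. Because read depth cannot be read from TPM, it is unknown and counting error has no interval here.

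All 10 genes lie on mouse chromosome 3. On GRCm38, S100a13, S100a14, S100a16, S100a3, S100a4, S100a6, S100a8 and S100a9 lie within 181 kb (chr3:90514435-90695721), S100a9 being the only 1 of the 10 on the minus strand. S100a11 and S100a10 lie farther along the chromosome (chr3:93520488-93526287 and chr3:93555080-93564643). Promoters, 300 bases from 250 before to 50 after the start site, were available from RefSeq (GRCm38.p6) for 8 of the 10 genes, and the missing entries were those of S100a10 and S100a14. S100a8 and S100a9 are shown because their levels followed each other from mouse to mouse, and S100a6 and S100a11 because they were the most abundant members and parted in 1 library. Capitals mark matches, on the gene's own strand, to TATAAA (the TATA box), TGANTCA (the AP-1 motif), GGGCGG (the GC box) or TTGCNNAA (the C/EBP half-palindrome core), which were searched on both strands. The windows are chr3:90668821-90669120 (plus strand) for S100a8, chr3:90695672-90695971 (minus strand) for S100a9, chr3:90612644-90612943 (plus strand) for S100a6 and chr3:93520246-93520545 (plus strand) for S100a11.
S100a8: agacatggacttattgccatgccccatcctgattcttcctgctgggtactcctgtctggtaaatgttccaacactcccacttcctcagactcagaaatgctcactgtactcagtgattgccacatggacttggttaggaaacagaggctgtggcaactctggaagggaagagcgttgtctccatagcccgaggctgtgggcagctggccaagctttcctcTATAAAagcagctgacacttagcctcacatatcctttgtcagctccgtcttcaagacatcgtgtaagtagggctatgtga
S100a9: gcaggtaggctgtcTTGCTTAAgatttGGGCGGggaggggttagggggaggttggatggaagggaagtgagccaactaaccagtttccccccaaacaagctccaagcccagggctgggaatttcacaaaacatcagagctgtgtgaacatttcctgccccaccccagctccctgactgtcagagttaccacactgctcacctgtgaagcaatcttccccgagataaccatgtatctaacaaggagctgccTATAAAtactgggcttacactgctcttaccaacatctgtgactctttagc
S100a6: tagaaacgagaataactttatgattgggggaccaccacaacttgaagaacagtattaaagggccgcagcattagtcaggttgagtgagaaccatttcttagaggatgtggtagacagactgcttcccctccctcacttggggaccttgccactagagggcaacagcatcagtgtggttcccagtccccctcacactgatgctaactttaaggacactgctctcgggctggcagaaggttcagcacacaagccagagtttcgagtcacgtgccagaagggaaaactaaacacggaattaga
S100a11: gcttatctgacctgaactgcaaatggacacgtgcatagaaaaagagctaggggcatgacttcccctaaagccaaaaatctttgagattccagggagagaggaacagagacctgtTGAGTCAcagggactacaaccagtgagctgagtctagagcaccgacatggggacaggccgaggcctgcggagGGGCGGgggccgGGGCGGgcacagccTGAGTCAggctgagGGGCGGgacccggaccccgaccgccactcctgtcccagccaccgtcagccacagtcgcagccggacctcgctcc

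The promoters of S100a8 and S100a9, which form 1 protein complex, differed in the letters they held. S100a8 had TATAAA from position -30 to -25 relative to the start site at 0, and S100a9 had it from 0 to 5, at the annotated start itself. S100a9 also held GGGCGG from -223 to -218 and TTGCTTAA from -236 to -229. Among 32851 mouse promoters of the same length, 13.6% held TATAAA on either strand and 10.8% held TTGCNNAA. S100a11 held 2 AP-1 motifs and 3 GC boxes, which 7.81% and 35.7% of all promoters held at least once, and 61.7% of its bases were G or C. S100a6, at 49.3% G or C, held no match in its window. S100a4, not printed, had TATAAA from -31 to -26. These matches are a description of letters and say nothing of which factors bound.

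The 10 members spanned a wide range of levels, and 5 of them held nearly all of their summed TPM. S100a1, outside the 10, is not ranked here. Its mean TPM of 26.72 lay between those of S100a14 (40.75) and S100a8 (8.145). By mean log2 TPM over the 5 mice the order was S100a6 (8.25), S100a11 (7.94), S100a10 (6.32), S100a16 (6.14), S100a14 (5.29), S100a8 (2.75), S100a4 (2.49), S100a9 (2.23), S100a13 (1.38) and S100a3 (0.69). The first 5 together made up 94.9% to 98.6% of the summed TPM of the members in each mouse. The boundaries between S100a11 and S100a10, between S100a16 and S100a14 and between S100a14 and S100a8 held in all 5 mice. Other neighbours in the order changed places: S100a6 was above S100a11 in 4 of 5 mice, S100a10 above S100a16 in 4, S100a9 above S100a13 in 4, S100a4 above S100a9 in 3, S100a13 above S100a3 in 3, and S100a8 above S100a4 in only 2. Among protein-coding genes ordered by TPM within a mouse, S100a11 stood between places 15 and 26, and S100a6 between 9 and 70. S100a14, the lowest of the abundant members, stood between 213 and 361.

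**Figure D1:**
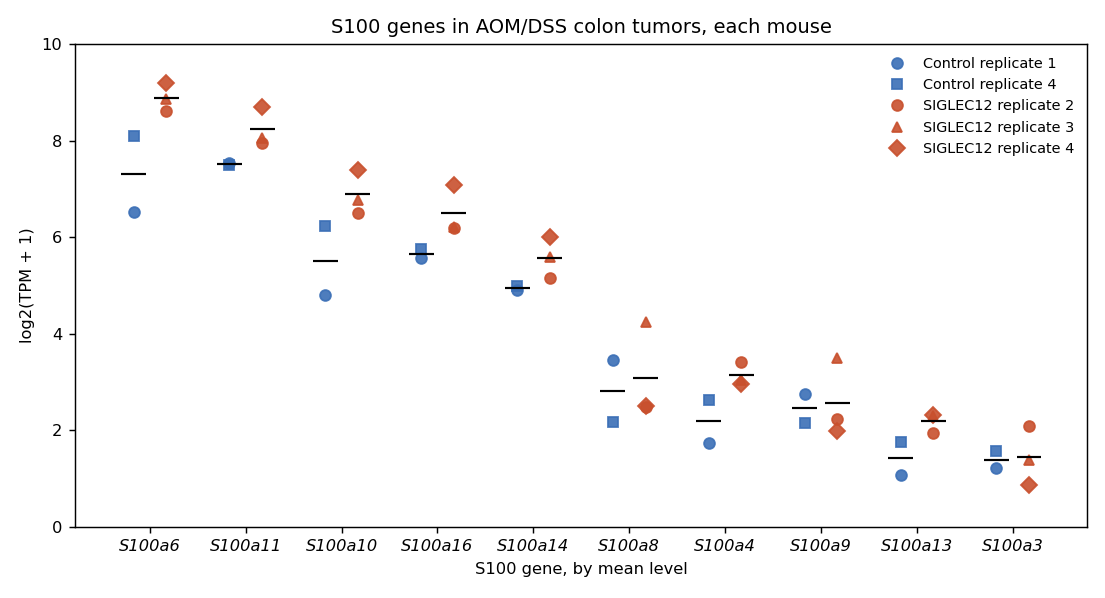
Level of each S100 gene in each mouse on the deposited log2(TPM + 1) scale, genes ordered from left to right by mean level, Control in blue and SIGLEC12 in red, with black bars at group means. The blue circle of Control replicate 1 lies well below the other Control mouse for S100a6 and S100a10 but beside it for S100a11, S100a14 and S100a16.

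S100a6, or calcyclin, is a growth-linked member that binds CacyBP and annexins, and it was the most abundant member in 4 of 5 mice. Its level as log2(TPM + 1) was 6.51 and 8.09 in Control replicates 1 and 4, and 8.61, 8.85 and 9.20 in SIGLEC12 replicates 2, 3 and 4. The groups did not overlap, but the Control mice lay farther from each other than Control replicate 4 lay from any SIGLEC12 mouse. The difference was 1.59 (SE 0.48), with an unadjusted p of 0.0140 and an adjusted p of 0.101 by limma with Benjamini-Hochberg adjustment over all genes. It came to 0.80 without Control replicate 1 and to 2.38 without Control replicate 4, so those libraries set its size. After rescaling the difference was 1.04 (95% interval -0.02 to 2.10) and the groups still did not overlap.

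S100a10, or p11, is the partner that annexin A2 needs to form a tetramer at the plasma membrane, where plasminogen is activated. Its log2(TPM + 1) was 4.79 and 6.24 in the Control mice and 6.50, 6.78 and 7.40 in the SIGLEC12 mice. As deposited, the pattern was that of S100a6: no overlap, Control replicate 1 lowest by a wide margin, SIGLEC12 replicate 4 highest. The difference was 1.38 (SE 0.49), with a limma adjusted p of 0.115. Without Control replicate 1 it was 0.65, without Control replicate 4 it was 2.10, and after rescaling it was 0.83 with an unadjusted p of 0.104 (limma). Unlike those of S100a6, the rescaled groups overlapped, at 6.474 in Control replicate 4 against 6.343 in SIGLEC12 replicate 2.

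S100a11, a partner of annexin A1 with roles in membrane repair and growth control of epithelia, behaved otherwise in the Control mice. Its log2(TPM + 1) was 7.54 and 7.49 in Control and 7.96, 8.05 and 8.70 in SIGLEC12 mice. Here, as deposited, the Control mice lay side by side although S100a6 parted them by more than 1 unit, and the spread was among the SIGLEC12 mice. The difference was 0.72 (SE 0.29, limma adjusted p 0.143), and it was 0.74 without Control replicate 1. Rescaling took it to 0.17 and made the groups overlap. The rescaled values were 8.022 and 7.732 in Control replicates 1 and 4, and 7.804, 7.915 and 8.409 in SIGLEC12 mice.

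S100a16, a widely expressed member, and S100a14, an epithelial member that binds calcium weakly, had the same shape as S100a11 as deposited. S100a16 measured 5.56 and 5.75 in Control and 6.20, 6.21 and 7.07 in SIGLEC12 mice on the log2(TPM + 1) scale, a difference of 0.84 (SE 0.34, limma adjusted p 0.137). S100a14 measured 4.90 and 4.99 in Control and 5.15, 5.58 and 5.99 in SIGLEC12 mice, a difference of 0.63 (SE 0.30, limma adjusted p 0.181). Neither gene overlapped between groups as deposited, and SIGLEC12 replicate 4 was the highest in both. On the rescaled scale the differences were 0.29 for S100a16, still without overlap, and 0.09 for S100a14, with overlap. The rescaled gap for S100a16 was narrow, at 6.029 in Control replicate 1 against 6.045 in SIGLEC12 replicate 2. SIGLEC12 replicates 3 and 4 were at 6.074 and 6.782. Without Control replicate 1 they were 0.74 and 0.58 as deposited.

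S100a4 and S100a13 were scarce but, as deposited, lay higher in each SIGLEC12 mouse than in either Control mouse. After rescaling both genes overlapped between groups. S100a4, known as metastasin, binds non-muscle myosin and is made by fibroblasts and leukocytes as well as by invasive tumor cells. Its log2(TPM + 1) was 1.73 and 2.63 in Control and 3.41, 3.04 and 2.96 in SIGLEC12 mice. The difference was 0.95 (SE 0.31, limma adjusted p 0.104), 0.50 without Control replicate 1, 1.40 without Control replicate 4 and 0.51 after rescaling. S100a13, which carries FGF1 out of cells by a route that bypasses the Golgi, measured 1.07 and 1.76 in Control and 1.95, 2.29 and 2.32 in SIGLEC12 mice. Its difference was 0.77 (SE 0.25, limma adjusted p 0.105), 0.43 without Control replicate 1 and 0.40 after rescaling. Unlike S100a6, S100a10, S100a11, S100a14 and S100a16, S100a4 was highest in SIGLEC12 replicate 2, the mouse with the highest summed fibroblast markers. That mouse was also highest for S100a3 and for the summed smooth muscle, endothelial and T cell markers. The next highest was SIGLEC12 replicate 3 for S100a4, but replicate 4 for the fibroblast sum (31.7 against 22.7 in replicate 3). Which cells made S100a4 was not tested.

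S100a3, best known from the hair cuticle, was the scarcest member. Its log2(TPM + 1) was 1.21 and 1.56 in Control and 2.09, 1.38 and 0.86 in SIGLEC12 mice, so that SIGLEC12 mice were both highest and lowest. The difference was 0.06 (SE 0.36, limma adjusted p 0.913), and -0.28 after rescaling. Its value is less certain than the others, because the annotated gene (chr3:90560578-90602702, plus strand) shares exons with Gm42674, as does S100a4, and the transcript listed for it is a non-coding one of 3143 bases. Gm42674 itself was at 0 in 4 mice and at 0.08 in SIGLEC12 replicate 2, on the log2(TPM + 1) scale.

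S100a8 and S100a9, the calprotectin subunits, did not separate the groups. S100a8 measured 3.46 and 2.18 in Control and 2.49, 4.24 and 2.50 in SIGLEC12 mice on the log2(TPM + 1) scale. S100a9 measured 2.75 and 2.16 in Control and 2.24, 3.50 and 1.99 in SIGLEC12 mice. Both genes were highest in SIGLEC12 replicate 3 and next in Control replicate 1, and the other 3 mice lay close together. The difference was 0.26 for S100a8 (95% interval -1.26 to 1.78, limma adjusted p 0.765) and 0.12 for S100a9 (95% interval -0.99 to 1.24), intervals that admit more than a 2-fold difference either way for S100a8. Both turned negative after rescaling (-0.22 and -0.34) and when either SIGLEC12 replicate 3 (-0.32 and -0.34) or Control replicate 4 (-0.38 and -0.18) was left out. Without Control replicate 1 they were larger and positive (0.90 and 0.42), so that the sign and size of both rested on single libraries.

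S100a8 and S100a9 followed each other closely. Across the 5 mice, after each gene was centred on its own mean, the root mean square difference between the pair was 0.28 in log2 units, and of 4318 tested genes with a mean log2 value of at least 2 none outside the family lay nearer to either, although Srgn lay about as near to S100a9. The nearest genes to S100a9 after S100a8 were Srgn (0.28), which encodes the proteoglycan of leukocyte granules, Bnip3 (0.32), Gm47283 (0.34), Slc25a4 (0.35) and Ifitm3 (0.37). For S100a8 they were Srgn (0.52), Bnip3 (0.54), Lamp2 (0.54), Hacd2 (0.55) and Hax1 (0.57). Srgn was highest in SIGLEC12 replicate 3, at 3.16, against 1.56 to 2.23 in the other mice. These distances describe 5 mice and carry no test.

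Across the family, all 10 differences were positive as deposited, 7 members lay higher in every SIGLEC12 mouse than in every Control mouse, and 0 lay lower in that sense. The background for such non-overlap was 54.1% of all tested genes higher and 1.67% lower. A positive difference was thus held by at least that 54.1% of tested genes, and its full share was not counted. At an unadjusted p of at most 0.05, 6 members were higher and 0 lower by limma, against a background of 33.4% and 0.909%. S100a6 and S100a10 also passed 2-fold, the cut-off that the study's methods name, which 3.97% of genes passed in that direction and 0.445% in the other; 4.68% were at least 2-fold higher whatever their p. After adjustment 0 of the 10 members and 0 of 10338 genes passed 0.05 together with 2-fold (0.0% of genes), and the lowest adjusted p of any gene was 0.0974. The median difference of the members was 0.74 beside 0.38 for all genes, and 15.2% of tested genes had a difference at or above 0.74. Rescaled, 7 members were positive, 3 were negative (S100a3, S100a8 and S100a9), S100a6 and S100a16 did not overlap between groups (background 15.6% higher, 16.8% lower), and 0 members had an unadjusted p of at most 0.05 by limma (background 4.45% higher, 6.31% lower). With a 2-fold difference as well, that background was 0.368% higher and 1.37% lower. S100a6 was the 1 member at least 2-fold higher on the rescaled values, as were 0.871% of genes. The rescaled median was 0.23 beside 0.01 for all genes.

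**Figure D2:**
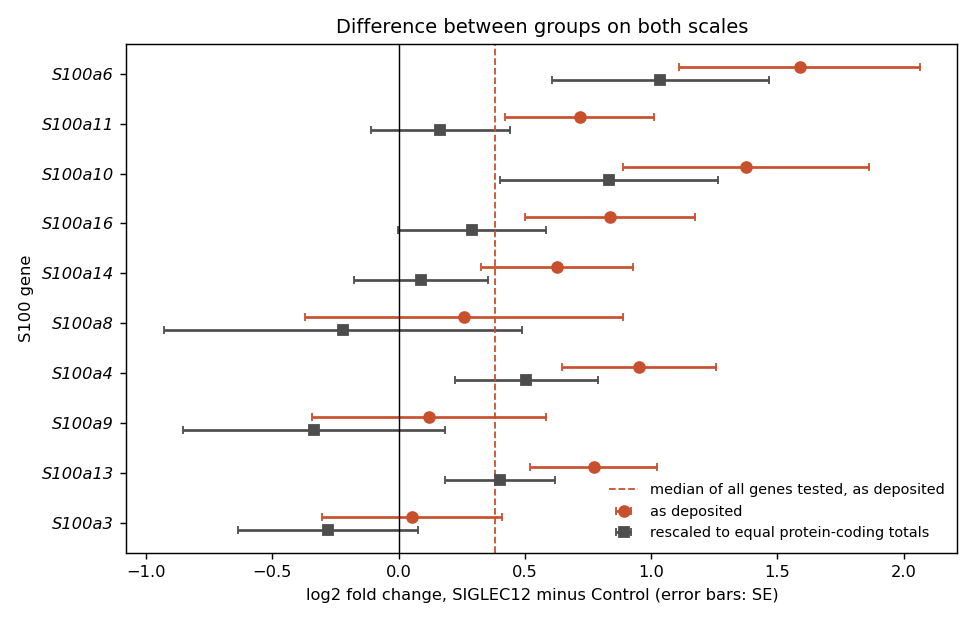
Difference in log2 level between SIGLEC12 and Control mice for each S100 gene, with standard errors, as deposited (red circles) and after rescaling to equal protein-coding totals (grey squares), the dashed line marking the median of all tested genes as deposited (0.38). S100a6 and S100a10 lie farthest right on both scales, and S100a3, S100a8 and S100a9 cross 0 on rescaling.

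Shares within the family do not move with the scaling of a sample. S100a6 made up 22.7% and 43.4% of the members' TPM in Control replicates 1 and 4, and 45.5%, 46.3% and 42.5% in the SIGLEC12 mice. S100a11 made up 46.6% and 28.7% in Control and 28.8%, 26.6% and 29.9% in SIGLEC12 mice. The make-up of Control replicate 4 was thus that of the SIGLEC12 mice, and Control replicate 1 alone had more S100a11 than S100a6. S100a14 was the abundant member whose share did not overlap, at 7.24% and 4.93% in Control and 4.01%, 4.71% and 4.53% in SIGLEC12 mice, a lower share although its TPM was higher. The calprotectin pair made up 3.95% and 1.12% in Control and 0.970%, 2.84% and 0.550% in SIGLEC12 mice. The difference in the pair's share, -1.08 percentage points, stood beside SDs of 2.00 in Control and 1.22 in SIGLEC12 mice (exact permutation p 0.5, two-sided, where the smallest p for 2 mice against 3 is 0.1), and it was 0.34 without Control replicate 1. As a share of all protein-coding TPM, the 10 members together held 0.699% and 0.929% in Control and 0.971%, 1.14% and 1.43% in SIGLEC12 mice, without overlap (exact permutation p 0.2).

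**Figure D3:**
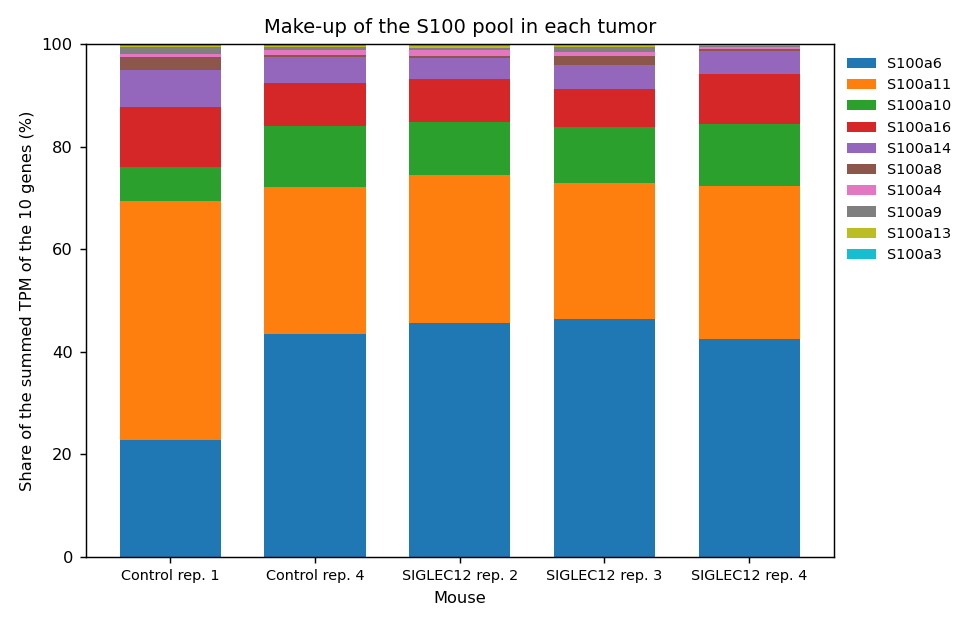
Share of each S100 gene in the summed TPM of the 10 genes (in percent), 1 bar per mouse. S100a6 fills 42.5% to 46.3% of the bar in every mouse but Control replicate 1, where it fills 22.7% and S100a11 fills 46.6%.

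Partner genes were compared within each mouse as log2 ratios of TPM, which rescaling leaves as they are. The groups overlapped in all 4 ratios, and the exact permutation test (two-sided) gave an adjusted p of 0.8 for each over the 4. With 2 mice against 3 its p cannot go below 0.1, so it could not have called a difference of any size. S100a8 to S100a9 was 0.80 and 0.02 in Control and 0.31, 0.80 and 0.65 in SIGLEC12 mice, so that S100a8 was above S100a9 in every mouse. S100a10 to its partner Anxa2 was -1.61 and -0.86 in Control and -0.88, -0.67 and -0.74 in SIGLEC12 mice. Anxa2 thus exceeded S100a10 in all 5 mice, and most in Control replicate 1. S100a11 to Anxa1 was 1.33 and -0.11 in Control and 0.53, 0.78 and 1.07 in SIGLEC12 mice, the Control mice holding the highest and the lowest ratio. S100a4 to S100a6 was -5.28 and -5.71 in Control and -5.35, -6.00 and -6.44 in SIGLEC12 mice. The mean differences were 0.17, 0.47, 0.18 and -0.43 in that order. Without Control replicate 1 the S100a10 to Anxa2 difference was 0.10, that of S100a8 to S100a9 0.56, that of S100a11 to Anxa1 0.90 and that of S100a4 to S100a6 -0.22. Without Control replicate 4 that of S100a8 to S100a9 was -0.22 and that of S100a11 to Anxa1 was -0.53. The S100a6 to S100a11 ratio, chosen after its values were seen, was -1.04 in Control replicate 1 and 0.51 to 0.80 in the other 4 mice.

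**Figure D4:**
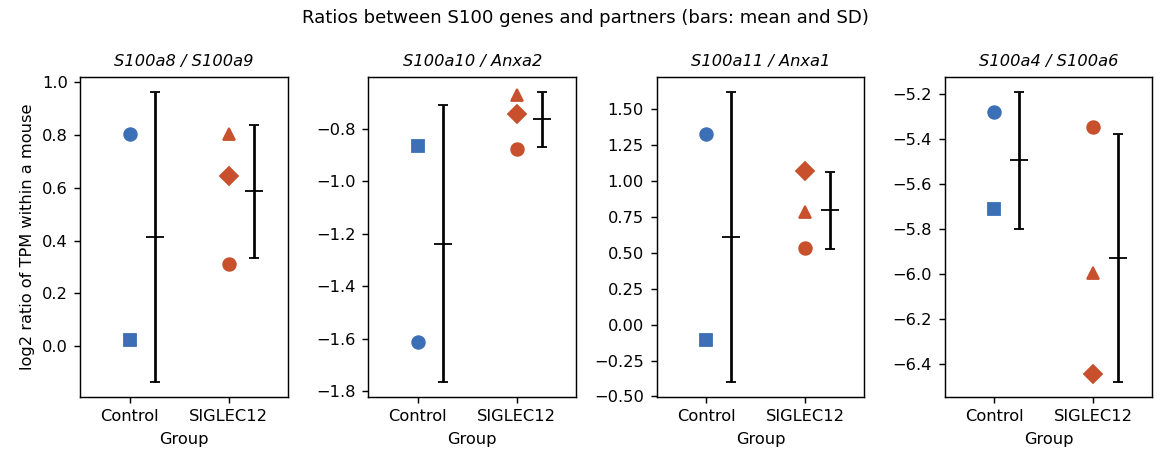
Log2 ratio of TPM within each mouse for 4 gene pairs, Control in blue (circle replicate 1, square replicate 4) and SIGLEC12 in red (circle replicate 2, triangle replicate 3, diamond replicate 4), with bars at the mean and SD of each group and a separate vertical axis for each pair. The groups overlap in all 4 pairs, and for S100a11 to Anxa1 the Control mice (1.33 and -0.11) lie on either side of all 3 SIGLEC12 mice.

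Of 9 further genes with an S100 symbol, 8 were in the table and 4 were tested, among them S100pbp, which is no family member but encodes a protein that binds S100P. S100a1, a regulator of calcium handling in muscle, measured 3.46 and 4.18 in Control and 5.05, 5.29 and 5.21 in SIGLEC12 mice as log2(TPM + 1). The groups did not overlap, and all 3 SIGLEC12 mice lay within a narrow band. Its difference was 1.36 (SE 0.28, unadjusted p 0.00218, limma adjusted p 0.0974), and 0.84 after rescaling (unadjusted p 0.0112, limma). S100a1 lies head to head with S100a13 on the minus strand (chr3:90511034-90514392), 43 bases between their starts. S100g, the intestinal calbindin, ranged from 0.66 to 3.02 in SIGLEC12 mice around Control values of 0.93 and 1.44. S100a7a differed by 0.38 and S100pbp by 0.15 as deposited, with limma adjusted p of 0.223 and 0.522. S100a5 and S100b were under a TPM of 0.1 in all 5 mice. Among 103 other genes of the table between the first and last S100 gene of chromosome 3, 26 were tested, 4 were higher and 1 was lower without overlap, and their median difference was 0.62 (0.38 rescaled). Those 4 of 26 stand against 54.1% of all tested genes higher without overlap, and 0 were so after rescaling, against 15.6%.

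Of 20 S100 receptors and binding partners, 15 were tested, 14 had a positive difference and 6 had an unadjusted p of at most 0.05, all higher, with a median of 0.62 as deposited and 0.11 rescaled. Of all tested genes 33.4% were higher at that p, and 0 partners were at that p after rescaling. The median difference of all tested genes was itself positive, 0.38 as deposited, and 0.01 rescaled. Ager, which encodes RAGE, was under a TPM of 0.1 in every mouse. Tlr4, the receptor for extracellular S100a8 and S100a9, measured 1.13 and 1.67 in Control and 2.17, 1.84 and 2.14 in SIGLEC12 mice as log2(TPM + 1), a difference of 0.65 (SE 0.22, limma adjusted p 0.109). Bsg, which encodes the S100a9 receptor basigin, measured 5.07 and 5.31 in Control and 6.02, 6.23 and 5.99 in SIGLEC12 mice, a difference of 0.89 (SE 0.23, limma adjusted p 0.0974). Both genes lay higher in every SIGLEC12 mouse as deposited, as did 9 of the 15 tested partners in all and 54.1% of all tested genes. After rescaling 2 partners did so, against 15.6% of all tested genes. The rescaled differences of Tlr4 and Bsg were 0.28 and 0.35. Anxa2 differed by 0.92 and Anxa1 by 0.53 as deposited (limma adjusted p 0.130 and 0.365). No tested partner reached 2-fold with an unadjusted p of at most 0.05.

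The wider EF-hand superfamily served as a comparison. Of 26 listed genes outside the S100 family 24 were tested, 22 had a positive difference, 15 were higher and 1 lower without overlap, and the median difference was 0.70, beside 0.74 for the S100 members. Of all tested genes 54.1% were higher without overlap, and the median difference of all tested genes was 0.38. Rescaled, 6 were higher and 1 lower without overlap (15.6% and 16.8% of all genes), and the medians were 0.28 and 0.23. The most abundant were Myl6, a myosin light chain, Calm2, a calmodulin gene, Actn4, an actin cross-linker, and Myl12b, a regulatory light chain. Their differences were 0.67, 1.15, 0.38 and 0.62 in that order, with limma adjusted p of 0.143, 0.0974, 0.383 and 0.251. The 2 genes of this list past an unadjusted p of 0.05 and 2-fold were Calm2 and Sri, which encodes sorcin and was named after its values were seen (1.27, limma adjusted p 0.0988). Their rescaled differences were 0.62 and 0.74.

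Cell type markers moved with some of these values, and their part in the results was not tested. Their counts without overlap stand against 54.1% of all tested genes higher and 1.67% lower as deposited. After rescaling those shares were 15.6% and 16.8%. The 12 columnar epithelium markers, all tested, summed to a TPM of 463 and 1410 in Control and 1509, 1336 and 2105 in SIGLEC12 mice. Of them 7 were higher and 1 was lower without overlap (3 and 1 after rescaling), and the sum was lowest in Control replicate 1 and highest in SIGLEC12 replicate 4, as was that of the S100 members (398 and 625.8 in Control, 858.7, 995.6 and 1385 in SIGLEC12 mice). The 12 squamous markers, 11 tested, summed to 3027 and 644 in Control and 1148, 429 and 634 in SIGLEC12 mice, 3 of them lower without overlap and 0 higher (4 and 0 after rescaling). Fibroblast markers (8 of 10 tested, 5 higher without overlap) summed to 12.9 and 14.8 in Control and 68.9, 22.7 and 31.7 in SIGLEC12 mice. Smooth muscle markers (6 of 6 tested, 2 higher) summed to 45.3 and 52.0 in Control and 112, 45.7 and 48.5 in SIGLEC12 mice.

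For S100a8 and S100a9 the lists of interest were those of leukocytes. Of 15 neutrophil markers 3 were tested, and Mpo, Elane, Mmp8, Ngp, Camp and Cxcr1 were under a TPM of 0.1 in all 5 mice. The list summed to 205 and 223 in Control and 212, 144 and 66.1 in SIGLEC12 mice, most of it Ltf, which glandular epithelium also makes, in every mouse but SIGLEC12 replicate 4. Ly6g, the surface marker used to sort mouse neutrophils, measured 2.41 and 4.20 in Control and 4.01, 3.95 and 5.52 in SIGLEC12 mice as log2(TPM + 1). Its lowest and highest mice were not those of S100a8 or S100a9. Among untested markers, Csf3r (0.98 and 0.41 in Control, 0.80, 1.27 and 0.73 in SIGLEC12 mice) and Stfa2l1 differed from Ly6g. Both markers were highest in SIGLEC12 replicate 3 and next in Control replicate 1. Cxcr2 was highest in those mice too (0.67 each). Retnlg, Mmp9 and Fpr1 were highest in SIGLEC12 replicate 3 but not next in Control replicate 1. Of tested markers, Il1r2 was highest in SIGLEC12 replicate 2 and Ltf in Control replicate 4. Monocyte and macrophage markers (9 of 13 tested, 1 higher without overlap) summed to 17.4 and 10.1 in Control and 33.6, 40.9 and 13.5 in SIGLEC12 mice. SIGLEC12 replicate 3, where S100a8 and S100a9 were highest, had the highest monocyte and macrophage sum. Control replicate 1, where they were next highest, lay below SIGLEC12 replicates 2 and 3 on that sum. It also had the highest squamous sum. Which cells the S100a8 and S100a9 transcripts came from was not tested. Endothelial markers, none of 5 tested, summed to 0.94 and 0.99 in Control and 4.43, 1.87 and 2.50 in SIGLEC12 mice, without overlap on either scale, a log2 difference of 1.51 in the sum (0.96 rescaled). T cell markers, none of 5 tested, summed to at most 1.08 in any mouse.

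**Figure D5:**
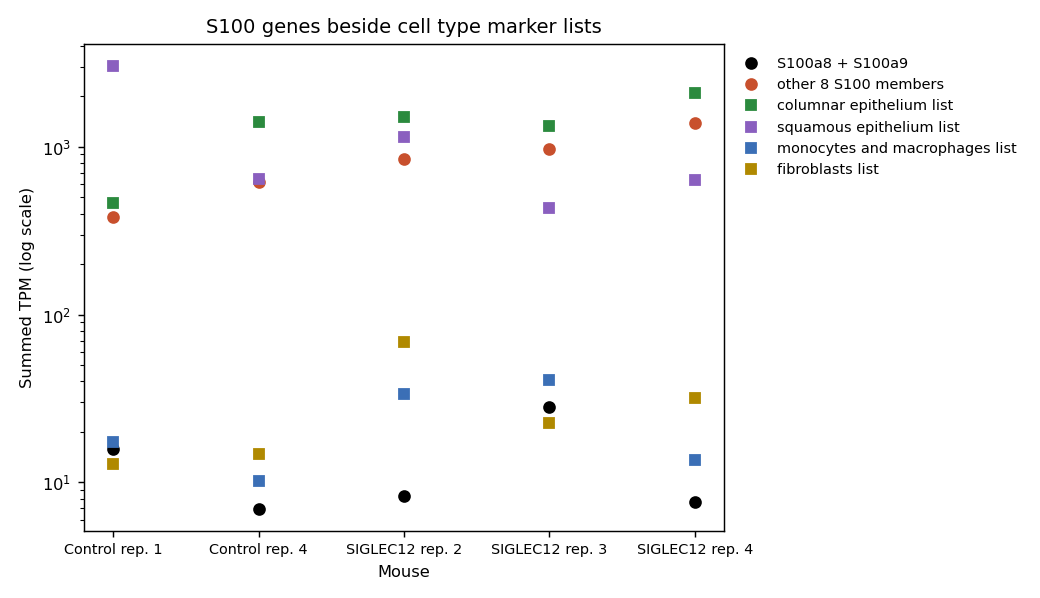
Summed TPM, on a log axis, of S100a8 with S100a9 (black circles), of the other 8 S100 genes (red circles) and of 4 cell type marker lists (squares) in each mouse. Control replicate 1 holds the highest squamous sum (3027) and the lowest columnar sum (463), and the black circles are highest in SIGLEC12 replicate 3.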

How the data were processed

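RNA-seq of colon tumors from 2 Control and 3 SIGLEC12 mice was analysed from 1 table of 52143 genes. The authors deposited log2 values, which are log2(TPM + 1): each column, undone, summed to between 999999 and 1000001. The submitters' processing notes name kallisto 0.45.0 and GRCm38, whereas the study's methods name a human reference. The labels name a stranded total RNA kit and the methods an mRNA kit. The methods name gene-level counting with featureCounts, and how the deposited TPM were made, and whether technical replicate libraries were averaged, is not stated. Nothing in the labels says that the samples of a group were handled separately, so p-values measure the spread between these samples, which may in part be technical. Of the gene identifiers, 98.45% were in GENCODE M21, used for coordinates. Groups came from the sample labels.

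Genes with a TPM of at least 1 in at least 2 samples were tested with limma 3.58.1 (R 4.3.3; lmFit, eBayes with trend, two-sided, Benjamini-Hochberg over 10338 genes). With a pseudocount of 1, changes of scarce genes are understated. The rescaled values bring each sample to the same protein-coding total before the log. Ratios and shares used exact permutation tests over 10 splits (SciPy 1.17.1). The code was tested on simulated data. Alternatives were a pseudocount of 0.1, no filter or a TPM of at least 5, 3 scalings, sample weights, no trend, and leaving out each replicate. Named were all members, fixed lists of other S100 genes, partners (those in a ratio or at 2-fold, and 3 receptors), the 4 most abundant other EF-hand genes and the 5 nearest genes to S100a8 and to S100a9. Some marker lists are not reported here. The members and lists were chosen with earlier results of these data known.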

Additional observations from a re-analysis of the deposited data

How the results depend on the processing

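No paired analysis was run, because nothing in the labels pairs mice across groups. Both groups carried the replicate number 4, which is not said to mark a pair. With 1 Control mouse left, it was assumed to vary like the other group. The members past an unadjusted p of 0.05 and 2-fold numbered 2, and 4 with a pseudocount of 0.1, 0 rescaled to the protein-coding total, 1 with quantile normalization, 1 with median-ratio size factors, 3 with sample weights, and 0 to 4 with 1 replicate left out (0 without Control replicate 1, 4 without Control replicate 4). Past an adjusted p of 0.05 (limma, Benjamini-Hochberg) and 2-fold there were 0, or 0 to 4 with 1 replicate left out; the 4 (S100a4, S100a6, S100a10 and S100a13) appeared without Control replicate 4, which leaves the library that stood apart as the lone Control. Over all genes that count was 0, and 0 to 1059 with 1 replicate left out, 1059 without Control replicate 4 and 1 without SIGLEC12 replicate 4. All genes past the unadjusted cut-off numbered 410 higher and 46 lower, with 1087 higher at a pseudocount of 0.1, 19 lower at a TPM of at least 5, 38 and 142 rescaled, 45 and 131 with quantile normalization, 46 and 139 with median-ratio factors, and 143 to 1366 and 51 to 146 with 1 replicate left out. The members' median of 0.74 became 0.23 rescaled, 0.30 with quantile normalization and 0.22 with median-ratio factors, and 0.55 to 0.85 with 1 replicate left out. In these 3 scalings, in the same order, S100a3 was -0.28, -0.24 and -0.28, S100a8 was -0.22, -0.22 and -0.23, and S100a9 was -0.34, -0.31 and -0.34. With 1 replicate left out S100a3 ran from -0.27 to 0.35, S100a8 from -0.38 to 0.90 and S100a9 from -0.34 to 0.42; S100a3 was -0.12 without Control replicate 1 and -0.27 without SIGLEC12 replicate 2, S100a8 was -0.38 and S100a9 -0.18 without Control replicate 4, and they were -0.32 and -0.34 without SIGLEC12 replicate 3. The ratio differences ran from -0.22 to 0.56 (S100a8 to S100a9), 0.10 to 0.85 (S100a10 to Anxa2), -0.53 to 0.90 (S100a11 to Anxa1) and -0.72 to -0.18 (S100a4 to S100a6), and the share of S100a8 with S100a9 from -2.50 to 0.34 percentage points. The summed markers of smooth muscle (0.37) were -0.18 in log2 units when rescaled. The other 7 members kept a positive difference under every alternative run. The causes were not tested. Filters, weights and the trend do not enter the ratios and the share, and the depth, unknown here, sets no stated limit.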
